A study of Danio rerio with 15 samples.

Results

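The mitochondrial ribosome is the machine that makes the few proteins encoded in the organelle's own DNA, nearly all of them subunits of the respiratory chain. Its RNAs come from mitochondrial DNA, whereas all of its proteins come from nuclear genes, are made in the cytosol and are imported. By custom the genes of the large subunit carry names beginning with mrpl and those of the small subunit names beginning with mrps. The genes described here are those whose symbol in the deposited tables begins with mrpl or mrps followed by a digit and whose base mean, the mean of the normalized read counts over the libraries of a fit, reached 10 in each of the 2 tables. They are 74 of 36351 genes, 46 of them mrpl and 28 mrps. No gene with such a symbol was lost to that limit, since the lowest base means were 101 and 98.3, both of mrpl58.

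Whole zebrafish larvae (Danio rerio, strain AB, wild type) were held from 24 to 100 hours post fertilization in water holding 0.01% DMSO by volume (the vehicle control), 50 nM TCPM or 50 nM TCPMOH, and were collected at 100 hours; the carrier of the compounds is not given in the labels. The compounds, tris(4-chlorophenyl)methane (TCPM) and tris(4-chlorophenyl)methanol (TCPMOH), differ at the central carbon, where a hydroxyl group in TCPMOH stands in place of the hydrogen of TCPM. There were 5 samples in each of 3 groups, all pools of 8 to 10 larvae, and stranded mRNA libraries were sequenced. The values are those of the authors' DESeq2 tables, 1 per compound, into each of which 8 libraries had entered, 4 of DMSO, the same in both tables, and 4 of the compound, as read from genes with a lone read. Their depth, estimated from the summed base means and the size factors, was about 18200000 to 25900000 assigned reads by the TCPM table and 18100000 to 25700000 by that of TCPMOH. The tables hold no value per library, so each gene is given by its group means and the fitted error. All 20 markers looked up for muscle, heart, liver, intestine, pancreas, neurons, photoreceptors, lens, blood and skin had base means of at least 97.2 in both tables, and a heart marker, vmhc, has no row in the tables. In whole larvae, fewer cells that are rich in mitochondria and less RNA per cell cannot be told apart.

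Transcripts of the mitochondrial ribosomal proteins lay close to the DMSO level with either compound. In the authors' deposited tables none of the 74 genes passed an adjusted p under 0.05 (DESeq2, Benjamini-Hochberg adjustment), beside 1.89% of all genes tested with TCPM and 2.55% with TCPMOH. At an unadjusted p under 0.05 the count was 0 of 74 in each comparison, whereas 8.5% and 9.27% of all genes at the same base mean limit were under it. Before shrinkage, the pull toward 0 that DESeq2 applies to fold changes, the members ranged from 0.858 to 1.11 times the DMSO level with TCPM and from 0.884 to 1.12 times with TCPMOH. Every fold given below is before shrinkage and is compound over DMSO.

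**Figure D1:**
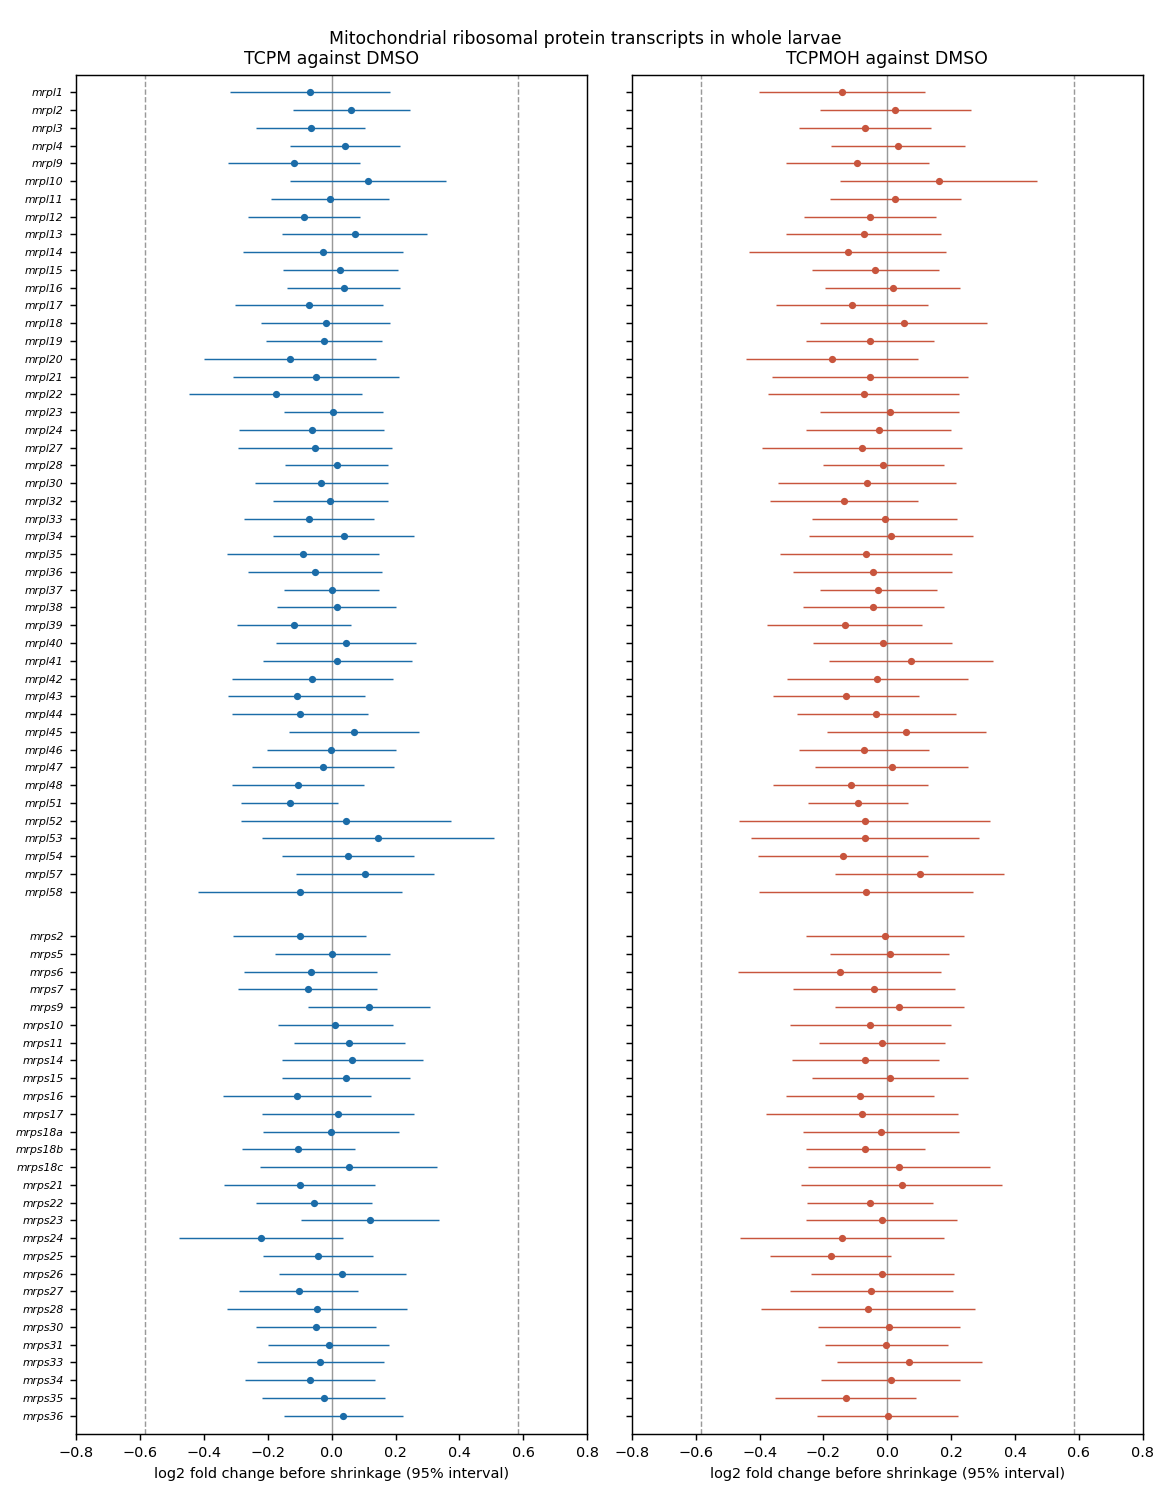
Log2 fold change before shrinkage of each of the 74 mitochondrial ribosomal protein genes (rows, mrpl above mrps) with TCPM (left) and TCPMOH (right) against DMSO, as points with 95% intervals; the dashed lines mark a 1.5-fold change in either direction. All 74 intervals hold 0 and lie between the dashed lines in both panels.

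A p that misses the threshold does not show that a level is unchanged, so the intervals are given. The 95% interval of the fold lay inside a 1.5-fold change in either direction for 74 of 74 genes with TCPM and for 74 with TCPMOH. Within 1.25-fold lay the intervals of 59 and 47 members. Of the 12953 genes in the same base mean range, the intervals of 96.3% with TCPM and 93.1% with TCPMOH lay within 1.5-fold, and of 60.4% and 47.0% within 1.25-fold. The median half-width of the members' intervals in log2 was 0.21 with TCPM and 0.24 with TCPMOH, beside 0.21 and 0.23 for all genes of that range. The members were thus measured about as finely as other genes with as many reads.

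The fitted error corresponds to a spread between libraries of 10.4% of the mean for the median member for TCPM, from 7.41% to 18.2%, and of 11.99% for TCPMOH, from 7.80% to 19.7%. Counting error alone, at the median member's base mean of 349 and 337 normalized reads, is 5.35% and 5.44% per library. The members' Wald scores, each a log2 fold change divided by its standard error, had an SD of 0.66 with TCPM and 0.52 with TCPMOH. Over all genes at the base mean limit that SD was 1.28 and 1.36. The members' fold changes thus scattered less than their own fitted errors. Whether those errors are too wide for these genes, or shared among them, was not tested. The count of 0 members at an unadjusted p under 0.05 (DESeq2) rests on these errors. The score farthest from 0 was 1.69 in size with TCPM and 1.83 with TCPMOH, while it reached 17.1 and 21.9 over all genes.

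**Figure D2:**
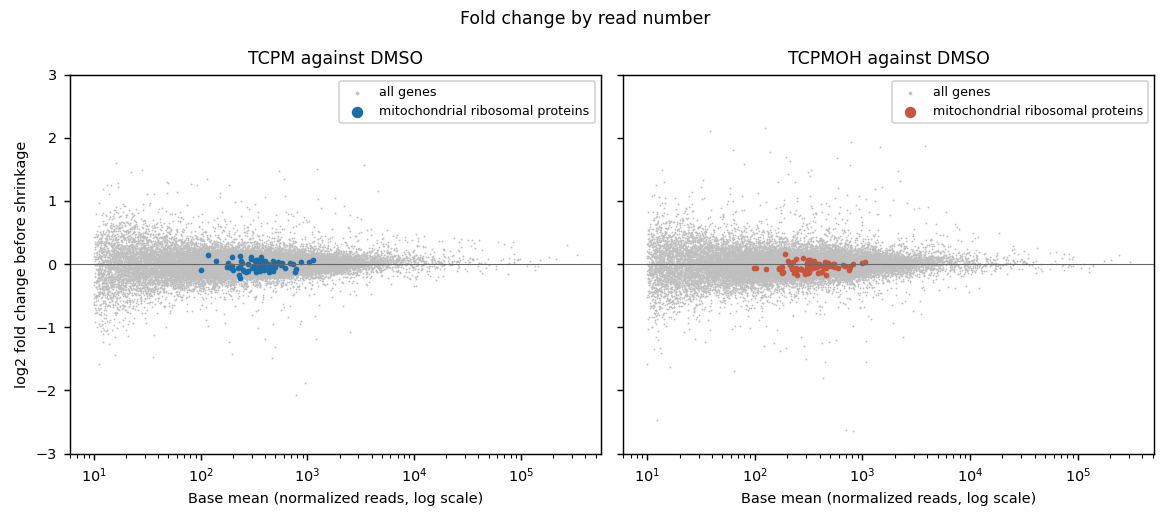
Log2 fold change before shrinkage against base mean (log axis) for all genes at or above the base mean limit of 10 (grey) and for the mitochondrial ribosomal proteins (colour), with TCPM (left) and TCPMOH (right). The coloured points fall in the middle of the grey cloud, at base means from about 100 upward, and none lies near its upper or lower edge.

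With TCPM 46 of 74 members had a fold below 1 and 28 above 1, and the median fold was 0.983. Of all genes in the same base mean range 48.0% were above 1 with TCPM and 47.7% with TCPMOH. On the deposited log2 scale the members' median was -0.020, beside -0.0042 over all genes of the same base mean range. With TCPMOH 53 were below and 21 above, with a median fold of 0.969 and a deposited log2 median of -0.037, beside -0.0061. The median standard error of a single member was 0.085 and 0.098. That is the error of 1 gene and not of the median, and how far the members move together from pool to pool was not tested, so no error is given for these medians. Added over all members, the mean normalized counts were 29067 in DMSO, 28668 in TCPM and 28366 in TCPMOH larvae. For 62 of 74 genes the highest of the group means exceeded the lowest by less than 10%, and for 74 by less than 20%. The narrowest range was 0.469% in mrps5 and the widest 16.6% in mrps24.

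Among the members with TCPM, mrps24, a small-subunit homologue of bacterial protein S3, had the lowest fold. Its mean normalized count was 254 in DMSO, 218 in TCPM and 230.4 in TCPMOH larvae. That is 0.858 times the DMSO level with TCPM, with a 95% interval of 0.718 to 1.02 and an adjusted p of 0.698, per the authors' deposited table. The mitochondrion-specific large-subunit gene mrpl51 had about as low a p at 0.913 times (0.821 to 1.01), with means of 809 in DMSO and 739 in TCPM larvae (adjusted p = 0.699 in the authors' deposited table). Both intervals include no change. The others with the lowest p below DMSO were mrpl22 at 0.885 times, mrpl39 at 0.921, mrps18b at 0.930, mrpl9 at 0.921, mrps27 at 0.931 and mrpl48 at 0.929. Above DMSO they were mrps9 at 1.08 times, mrps23 at 1.09, mrpl57 at 1.08, mrpl10 at 1.08, mrpl53 at 1.11, mrpl45 at 1.05, mrpl2 at 1.04 and mrpl13 at 1.05. None of these passed, and the lowest adjusted p of any member with TCPM was, per the authors' deposited table, 0.698.

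With TCPMOH the lowest p belonged to mrps25, a small-subunit protein that bacteria lack. Its mean normalized count was 503 in DMSO, 488 in TCPM and 445 in TCPMOH larvae, which is 0.884 times the DMSO level with TCPMOH (0.775 to 1.01, adjusted p = 0.593 in the authors' deposited table). Its interval just includes 1. Next below DMSO were mrpl20 at 0.887 times, mrps35 at 0.913, mrpl51 at 0.938, mrpl43 at 0.914, mrpl39 at 0.912, mrpl1 at 0.907 and mrpl32 at 0.911. The gene mrpl32 encodes a protein whose cleavage by an inner-membrane protease is a step of ribosome assembly in yeast and mice. Above DMSO the members with the lowest p were mrpl10 at 1.12 times, mrpl57 at 1.07, mrps33 at 1.05, mrpl41 at 1.05, mrpl45 at 1.04, mrpl18 at 1.04, mrps9 at 1.03 and mrpl4 at 1.02. For mrpl10, with means of 187 in DMSO and 209.6 in TCPMOH larvae, the interval was 0.902 to 1.39, so its upper end is the highest of any member with TCPMOH.

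The 46 mrpl genes had a median fold of 0.983 with TCPM, with an SD of 0.073 in log2, and 0.963 with TCPMOH (SD 0.069). The 28 mrps genes had 0.980 (SD 0.076) and 0.987 (SD 0.061). The names do not map perfectly onto the particle: in mammalian structures the products of mrps30 and mrps18a sit in the large subunit, and the product of mrps36 is a part of the 2-oxoglutarate dehydrogenase complex in mammals and not of the ribosome. Their folds were 0.966 and 1.00 for mrps30, 0.999 and 0.986 for mrps18a, and 1.03 and 1.00 for mrps36, with TCPM and TCPMOH in that order. Compared with its bacterial ancestor the mitochondrial ribosome has gained many proteins, so the genes were also split by whether bacteria have a homologue.

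On the deposited log2 scale the 29 large-subunit genes with a bacterial homologue had a median of -0.022 with TCPM and -0.039 with TCPMOH. For the 18 large-subunit genes without one the medians were -0.00082 and -0.040. In the small subunit they were -0.015 and -0.037 for 16 genes with a homologue, and -0.029 and -0.015 for 9 genes without. The remaining pair of members, mrps18a and mrps36, were in none of these lists. No member of any of the 4 lists passed in either table, and differences between the lists were not tested.

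Several members lie near the site where peptide bonds form or are known from inherited disease. Near that site sit the homologues of bacterial proteins L2, L3, L16 and L27. The gene mrpl3 had means of 628 in DMSO, 600.0 in TCPM and 598 in TCPMOH larvae, and stood at 0.956 times DMSO with TCPM (0.849 to 1.08) and 0.953 with TCPMOH (0.826 to 1.1). For mrpl16 the means were 1018, 1045 and 1029.8 in the same order, and for mrpl2 they were 1097, 1145 and 1116. The gene mrpl27 stood at 0.964 and 0.946 times DMSO. All these intervals include 1.

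In humans, mutations in the genes MRPS16, MRPS22, MRPS7 and MRPL44 cause combined defects of the respiratory chain. Their zebrafish namesakes stood at 0.927 times DMSO with TCPM and 0.943 with TCPMOH for mrps16, and at 0.962 and 0.963 for mrps22. For mrps7 the folds were 0.949 and 0.972, and for mrpl44 0.934 and 0.976. The fitted spread between libraries was 11.6% of the mean for mrps16, 9.14% for mrps22, 10.9% for mrps7 and 10.6% for mrpl44 in the TCPM fit. None of these genes passed in either table. These 8 genes were picked for what they do, with earlier results of these data known, and mrpl2 and mrpl16 are also among the members with the most reads.

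Genes were also grouped by where their products sit. The stalk of the large subunit, built on mrpl10 and mrpl11 and carrying copies of the mrpl12 product, brings translation factors to the ribosome. In human cells the mrpl12 product also binds the mitochondrial RNA polymerase. The mean normalized count of mrpl12 was 808 in DMSO, 761 in TCPM and 778 in TCPMOH larvae, that is 0.942 times with TCPM (0.834 to 1.06) and 0.963 times with TCPMOH (0.835 to 1.11). The 5 stalk genes, with mrpl53 and mrpl54, had a deposited log2 median of 0.041 with TCPM and -0.045 with TCPMOH, spanning -0.073 to 0.086 and -0.11 to 0.11. Taken gene by gene, the log2 difference TCPMOH minus TCPM on the same scale had a median of 0.025, with 3 of 5 genes above 0, so the medians of the single comparisons do not show the order of most of these genes.

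Around the exit tunnel, where the new protein leaves toward the inner membrane, sit the products of 8 listed genes, among them mrpl45, which in humans anchors the ribosome to that membrane. Their deposited log2 median was -0.051 with TCPM and -0.025 with TCPMOH, 6 and 5 of 8 being below 0. For mrpl22, a tunnel protein conserved from bacteria, the means were 242 in DMSO, 214 in TCPM and 229.6 in TCPMOH larvae, and the TCPM interval of 0.734 to 1.07 times includes 1. The central protuberance, where a transfer RNA takes the place of bacterial 5S RNA in mammals, is represented by 8 genes. Their medians were -0.0084 and -0.040, and the TCPM values spanned -0.086 to 0.035. The gene mrpl58 encodes a hydrolase built into the large subunit that frees stalled ribosomes in human cells, and it stood at 0.933 times DMSO with TCPM (0.747 to 1.16) and 0.955 times with TCPMOH (0.757 to 1.20).

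Members with fewer reads had wider errors. The members with the fewest reads were mrpl58, mrpl53 and mrpl52, with base means of 101, 116 and 139 in the TCPM table, and those with the most were mrpl2 at 1121, mrpl16 at 1032, mrps36 at 865, mrpl12 at 785 and mrpl51 at 774. Transcript length was not corrected for, so this is an order of reads and not of molecules. With TCPM the interval of mrpl53 ran from 0.860 to 1.42 times and that of mrpl2 from 0.920 to 1.18 times. The member with the highest fold with TCPM was thus among those with the widest error. Across the 74 genes, Pearson's r between log2 base mean and standard error was -0.85 for TCPM and -0.77 for TCPMOH, as a description over genes that share libraries.

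The compounds were compared at the same dose and time by subtracting each gene's log2 fold change with TCPM from that with TCPMOH, with allowance for the DMSO libraries they share. Of 74 member differences 0 passed a two-sided normal test after Benjamini-Hochberg adjustment over all genes, beside 0.453% of 22732 genes. At an unadjusted p under 0.05 the count was 0, beside 4.62% of all genes. A p that misses the threshold does not show that the hydroxyl and hydrogen forms act alike. Before shrinkage the 95% interval of the difference lay within 1.5-fold for 74 of 74 genes and within 1.25-fold for 56. Of the 12953 genes in the same base mean range, 97.3% and 58.4% had intervals within those limits.

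**Figure D3:**
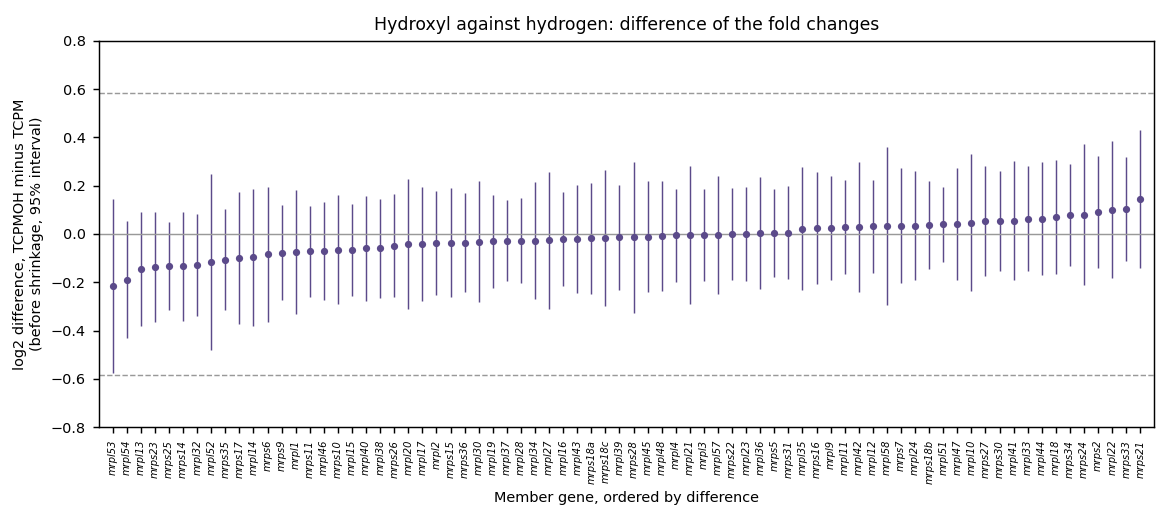
Log2 fold change with TCPMOH minus that with TCPM, before shrinkage, of each mitochondrial ribosomal protein gene (points, with 95% intervals), ordered by size; dashed lines mark 1.5-fold. All 74 intervals cross 0 and stay between the dashed lines, the lower end for mrpl53 coming closest.

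The lowest p among the differences was that of mrpl54, a mitochondrion-specific protein near the stalk. Its mean normalized count was 341 in DMSO, 354 in TCPM and 310.1 in TCPMOH larvae. The log2 difference before shrinkage was -0.19, with an interval of -0.43 to 0.052. On the deposited scale the difference was -0.15, with an unadjusted p of 0.124 and an adjusted p of 1.00 by the two-sided normal test over all genes. Further below 0 by p were mrps25 at -0.13 (-0.32 to 0.048), mrpl13 at -0.15, mrpl32 at -0.13 and mrps23 at -0.14, all before shrinkage. Above 0 were mrps21 at 0.15 (-0.14 to 0.43), mrps33 at 0.10, mrps2 at 0.092, mrps34 at 0.077 and mrpl22 at 0.10. The gene with the largest difference before shrinkage, mrpl53 at -0.22 (-0.58 to 0.14), has few reads. The median difference over the members was -0.0096 in log2 on the deposited scale, beside -0.0013 over all genes at the base mean limit.

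Of the known proteins of the particle with other names, 5 were found: dap3, a GTP-binding protein of the small subunit, ptcd3, chchd1, aurkaip1 and gadd45gip1. None passed in either table, and at an unadjusted p under 0.05 (DESeq2) there were 0 as well. The gene dap3 stood at 0.901 times DMSO with TCPM and 0.930 with TCPMOH, and chchd1 at 0.918 and 0.904. The symbols MRPL49 and MRPS12 are written in capitals in the deposited tables and so fall outside the rule. The protein of MRPS12 is the homologue of the bacterial S12 protein of the decoding centre, and it stood at 0.932 times DMSO with TCPM (0.827 to 1.05) and 0.869 with TCPMOH (0.733 to 1.03), and MRPL49 at 1.1 and 1.05. Neither passed. In RefSeq's gene order for assembly GRCz12tu, used here for names and neighbours only, mrps11 and mrpl46 were the only members next to each other among protein-coding genes. They stood at 1.04 and 0.999 times DMSO with TCPM and at 0.988 and 0.951 with TCPMOH.

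The other genes of mitochondrial translation came from lists chosen by function. Of 13 initiation, elongation, release and recycling factors and partners none passed in either table, with deposited log2 medians of 0.013 for TCPM and 0.011 for TCPMOH. The lowest p values with TCPMOH were those of gfm2, which splits used ribosomes, at 1.12 and 1.24 times DMSO (adjusted p = 0.820 and 0.281 in the authors' deposited tables), and of mtfmt, which formylates the initiator methionine, at 1.16 and 1.20 times. At an unadjusted p under 0.05 (DESeq2) these were the only factors, 0 with TCPM and 2 with TCPMOH. The share of all genes at the base mean limit was 8.5% and 9.27%. Of 20 genes listed for the charging of mitochondrial transfer RNAs none passed (DESeq2). At an unadjusted p under 0.05 there were 1 with TCPM and 0 with TCPMOH, and the medians were -0.0022 and -0.043. The list takes in the amidotransferase genes gatb, gatc and qrsl1. It also holds gars, hars and kars, whose names are not those of mitochondrial enzymes alone, with base means of 2416, 1460 and 3709 in the TCPM table. The listed gene with the lowest fold with TCPM, fars2, which charges the phenylalanine transfer RNA, was at 0.802 times (0.643 to 0.999, adjusted p = 0.576 in the authors' deposited table).

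None of 25 assembly genes passed in either table (DESeq2), and their deposited log2 medians were -0.027 and -0.033. At an unadjusted p under 0.05 there were 2 in each, 1 higher and 1 lower. The share of all genes at the base mean limit was 8.5% with TCPM and 9.27% with TCPMOH. The gene eral1, whose product chaperones the small ribosomal RNA, was at 0.871 times DMSO with TCPM (adjusted p = 0.299 in the authors' deposited table) and 0.867 with TCPMOH. The GTPase gene noa1 was at 1.28 and 1.23 times (adjusted p = 0.392 and 0.381 in the authors' deposited tables). Among 14 genes of mitochondrial transcription, RNA handling and DNA copying, 13 were below DMSO with TCPM and 8 with TCPMOH. Of all 22734 genes at the base mean limit 11401 and 11631 were below. None of the 14 was past the test, and at an unadjusted p under 0.05 (DESeq2) there were 0 and 1, with medians of -0.077 and -0.041. The lowest p of that list in either table belonged to slirp, which helps keep mitochondrial messengers stable, at 0.818 times with TCPMOH (adjusted p = 0.387 in the authors' deposited table).

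**Figure D4:**
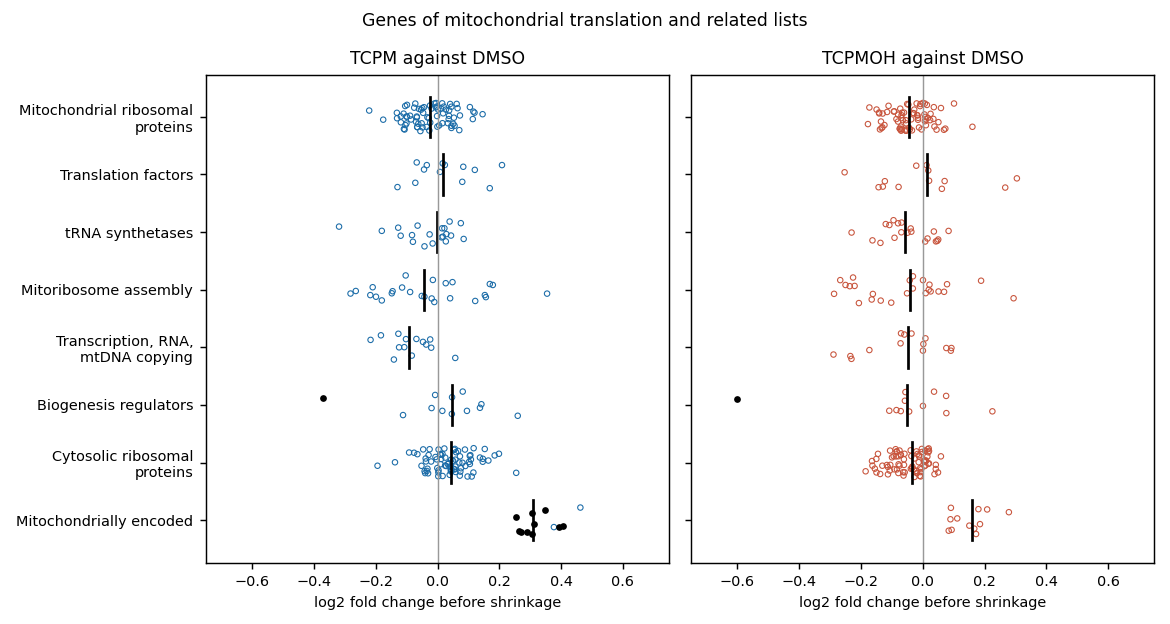
Log2 fold change before shrinkage of each gene in lists related to mitochondrial translation, with TCPM (left) and TCPMOH (right); open points did not pass, filled black points had a deposited adjusted p under 0.05, and bars are list medians. The ribosomal proteins lie around 0; pprc1 is the filled point on the left of both panels, and the 12 mitochondrially encoded transcripts lie above 0, 10 of them filled with TCPM and 0 with TCPMOH.

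Among 12 transcription regulators known to act on nuclear genes of the mitochondrion, 1 fell and none rose in each table. Of all genes tested at the base mean limit, 137 of 22218 fell with TCPM and 215 of 21491 with TCPMOH. Above DMSO lay 8 of the 12 with TCPM and 5 with TCPMOH, beside 49.9% and 48.8% of all genes at the base mean limit. The deposited log2 medians of the 12 were 0.042 and -0.042. The regulator that fell was pprc1, a growth-regulated coactivator related to PGC-1 alpha. In mammalian cells it acts on respiratory genes through the factor Nrf1. Its mean normalized count was 783 in DMSO, 605 in TCPM and 516 in TCPMOH larvae. It fell to 0.773 times the DMSO level with TCPM (0.677 to 0.882, adjusted p = 0.0108 in the authors' deposited table) and to 0.659 times with TCPMOH (0.549 to 0.791, adjusted p = 0.000701 in the authors' deposited table). Its difference between the compounds did not pass, with an interval of -0.47 to 0.0055 in log2 before shrinkage. The ribosomal protein genes had folds of 0.858 to 1.12 in these libraries, and whether pprc1 bears on them was not tested. Others of the list, shown for their role, were ppargc1a at 0.995 and 0.961 times DMSO, nrf1 at 1.01 and 1.03, and ppargc1b at 1.20 and 1.17 (adjusted p = 0.107 and 0.568 in the authors' deposited tables).

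The mitochondrial ribosome translates messengers made from mitochondrial DNA, among them those of oxidase, dehydrogenase and ATP synthase subunits. Of 12 mitochondrially encoded transcripts 10 rose with TCPM in the authors' deposited table and 0 with TCPMOH, where 12 of 12 were above DMSO. Among all genes tested at the base mean limit, 282 of 22218 rose with TCPM and 332 of 21491 with TCPMOH. With TCPMOH 48.8% of all genes at that limit were above DMSO. The 12 transcripts, which do not include mt-co3, all come from mitochondrial DNA, and how far they vary independently was not tested. Their deposited log2 medians were 0.27 and 0.13, beside -0.020 and -0.037 for the ribosomal proteins, a difference between lists that was not tested. The median standard error of a single transcript was 0.059 with TCPM and 0.102 with TCPMOH, so the counts of 10 and 0 rest on unequal errors. The oxidase transcript mt-co1 had means of 240228 in DMSO, 297218 in TCPM and 266704 in TCPMOH larvae, which is 1.24 and 1.11 times. At an unadjusted p under 0.05 (DESeq2) 12 were higher with TCPM and 1 with TCPMOH, beside 1110 and 1142 of 22732 genes at the base mean limit. Besides mt-co1, those that rose with TCPM were mt-nd2 at 1.31 times, mt-nd4 at 1.22, mt-cyb at 1.24, mt-atp6 at 1.27, mt-nd3 at 1.33, mt-co2 at 1.20, mt-nd1 at 1.21, mt-nd4l at 1.23 and mt-nd5 at 1.19. Between the compounds 0 of 12 differences passed on the deposited scale (lowest adjusted p = 0.336 by the two-sided normal test over all genes). At an unadjusted p under 0.05 by that test 5 were lower with TCPMOH, beside 535 of 22732 genes. These were mt-nd3, mt-nd4l, mt-co2, mt-atp6 and mt-co1. Before shrinkage their unadjusted p by the same test was 0.012, 0.045, 0.067, 0.135 and 0.105, in that order. The adjusted p of mt-nd3 by that test was then 0.677. The count of 5 thus depends on the scale.

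Tissue markers also moved in these larvae. Of 20 markers 3 rose with TCPM and 2 with TCPMOH, and 0 fell with either, in the authors' deposited tables. The intestine genes fabp2 and apoa4b.2 rose by 0.40 and 0.40 in deposited log2 with TCPM and by 0.36 and 0.41 with TCPMOH, per the authors' deposited tables. The red cell gene hbae1.1 rose by 0.37 with TCPM (adjusted p = 0.0400 in the authors' deposited table) and stood at 0.046 with TCPMOH. The other red cell marker, alas2, stood at 0.18 and 0.16 and passed in neither table. The summed mean normalized counts of all 20 markers were 617741 in DMSO, 649290 in TCPM and 618328 in TCPMOH larvae, and none was at 0. That sum rests mostly on muscle and skin transcripts that did not pass, such as mylpfa and krt4, with base means of 150509 and 112902 in the TCPM table. The part of the marker shifts in the values of the mitochondrially encoded transcripts was not tested.

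For comparison, 79 genes were picked by the symbols of cytosolic ribosomal proteins. By name, rps19bp1 (a binding protein of Rps19) and rpl7l1 (Rpl7-like) among them are not such proteins. Of the 79, 0 were past the test in either table, and 0 at an unadjusted p under 0.05 (DESeq2), with medians of 0.036 for TCPM and -0.026 for TCPMOH. With TCPM 59 of the 79 lay above DMSO, and with TCPMOH 21, beside 49.9% and 48.8% of all genes at the base mean limit. Taken gene by gene, the deposited log2 difference TCPMOH minus TCPM had a median of -0.060. It was below 0 for 69 of the 79, beside 11524 of 22734 genes at the base mean limit. None of these differences passed, and 2 were lower at an unadjusted p under 0.05 (two-sided normal test), beside 535 of 22732 genes. Whether the list as a whole differs between the compounds was not tested.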

How the data were processed

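Reads were handled by the authors with cutadapt, FastQC, STAR, featureCounts and DESeq2, per the submitters' processing notes, and gene models came from a GTF labelled V4.3.2, per the file headers. Tool versions and the genome build are not given in the sources used here. Base mean as deposited is a signal, the mean over libraries of counts divided by size factors. The deposited log2 fold changes and standard errors, the Wald score, the p-value and the adjusted p-value come from the authors' DESeq2 fits. Which of the 5 samples per group were left out of the fits is likewise not stated there, nor is the experimental replicate of a library, so no batch term was possible.

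Direction was read from the values. The DMSO means implied by the 2 tables agreed to an SD of 0.011 in log2 over 16488 genes with turned signs and 0.12 with deposited signs, so deposited values are DMSO over compound and every sign was reversed. Shrinkage was undone for a normal prior with an SD of 0.216 and 0.248, taken as 2 times the largest standard error. Over 73 members at base means of at least 100 the implied DMSO means then agreed to an SD of 0.00083. Group means are these implied means on the size factors of the TCPM table, and the spread between libraries is the standard error turned into a percentage of the mean for 4 against 4 libraries. Intervals are at 95%. Differences between compounds used a covariance of 0.5 times the product of the standard errors. Unless stated otherwise they were tested on the deposited log2 scale, and their intervals are before shrinkage. Calls are at an adjusted p under 0.05, over the 22223 and 21491 genes that the authors' filter kept. The tests were tried on simulated fold changes for the real genes (Python 3.11.15, scipy 1.17.1). The simulation took the same covariance and the same form of shrinkage as given, so it tries the calculation and not these assumptions. Kinase genes whose symbols begin with rps6k were left out of the cytosolic ribosomal list, whereas rps19bp1 and rpl7l1 were kept.

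Members and lists were chosen with earlier results of these data known. Named members are those with the lowest p, up to 8 in each direction per compound and 5 per direction between compounds, and the 5 highest and 3 lowest base means. Further members are named for their role, their naming or their gene order, and mrps5 for the range of its group means. Of the other lists the genes that passed and otherwise those with the lowest p are named, and a few for their role. The p-values rest on fitted errors between pools of larvae. The labels give 20 breeding pairs and 3 experimental replicates. Which pools share a replicate or a spawning is not given, so whether the pools are independent cannot be told. No columns of per-sample values are in the tables. Overlapping or antisense genes are uncertain, since strand use in counting is not given.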

Additional observations from a re-analysis of the deposited data

How the results depend on the processing

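The count of members called was 0 in each of the 3 comparisons and stayed 0 when p was adjusted over all genes with a p or over genes whose base mean reached 10 (compounds against DMSO), at an adjusted p under 0.1, at an unadjusted p under 0.05, with the covariance set to 0, with fold changes before shrinkage or with genes of base mean at least 50 (between compounds), with a member limit of 50 or none, and with the proteins of other symbols added. It also stayed 0 with MRPL49 and MRPS12 added and without mrps36, choices made after seeing the data. Several settings could not have given another count. The lowest member base mean was 98.3, so a limit of 50 or none kept the same members and the same medians. The lowest unadjusted p of a member was 0.0910 with TCPM and 0.0666 with TCPMOH (DESeq2), and 0.1245 between compounds (two-sided normal test). An adjusted p is never below its unadjusted p, so no re-adjustment could call a member at 0.05. A covariance of 0 only widens the error, and dropping mrps36 cannot add a call. The members' median log2 fold change was below 0 under each alternative run: with TCPM it was -0.0254 before shrinkage and -0.0198 after subtracting the median of all genes, and with TCPMOH -0.0451 and -0.0335. Removal of each library and edgeR fits were not run, since the tables hold no values per library. No paired analysis was possible because the experimental replicate of each library is not given and the tables hold no columns per library. Counting error was 5.35% and 5.44% of the mean per library for the median member, beside a fitted spread of 10.4% and 11.99%. By these fitted values counting error is the smaller part of the intervals' width. The source of the rest was not tested.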
